A study of Mus musculus with 54 samples.

Results

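Fraction III is 1 of 5 sorted gates of mouse haematopoietic stem cells in a single-cell RNA-seq study of blood formation at steady state and after transplantation. The 66 cells described here are those that the authors' cell annotation gives as steady state and as phenotype Fraction III; the sample labels name the gate iHSC3. They are 66 of 305 stem cell gate cells, of 1270 steady state cells and of 2301 annotated cells. Library L49 held 12 of them, L50 held 6, L54 held 6, L55 held 5 and L76 held 37. They were set against Fraction I (iHSC2, 102 cells, libraries L51, L76 and L81), ESLAM (iHSC4, 58 cells, L15 and L73), ESLAMSK (iHSC5, 57 cells, L1, L50 and L73) and LT_HSC (iHSC1, 22 cells, L14 and L74). A wider comparison used 508 cells of 9 multipotent progenitor gates (iMPP: ST_HSC, LMPP, MPP1 to MPP4, Fraction II, HPC2 and HPC3) from 17 libraries. All groups were steady state cells of C57BL/6 mice aged 8 to 10 weeks according to the labels, and the labels give bone marrow as the tissue of L1, L14, L15, L74, L76 and L81 and both bone marrow and spleen for L49, L50, L51, L54, L55 and L73. Libraries L49 and L55 also held transplanted cells collected at day 7, which were left out. The surface antigens that define each gate are not given in the sources used here.

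Haematopoietic stem cells sit at the top of the blood hierarchy, divide rarely and are sorted by antigens such as Kit, Sca-1 (gene Ly6a) and CD150 (gene Slamf1). Hlf, Mecom and Mllt3 encode nuclear regulators of stem cell maintenance, and Procr encodes EPCR, a surface receptor used to enrich stem cells. Mouse stem cells are not uniform: cells with von Willebrand factor (gene Vwf) have been described as primed towards platelets.

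The library, not the cell, was the unit of every test. Summed counts per Fraction III library ran between 517741 and 4115398, and a Fraction III cell had 23523 to 371711 counts (median 105720) and 2159 to 7642 detected genes (median 4336). The labels do not say which libraries came from separate mice, so p-values measure only the spread between libraries, which may be technical. L50, L76 and L73 each held 2 of the stem cell gates. The label of L49 also names iMPP1 and iMPP2, whereas its annotated cells outside Fraction III were Fraction II, HPC2 and transplanted cells, so its label and annotation differ. Libraries L1, L14 and L15 had Y-linked counts and almost no Xist, unlike the other 9, and these 3 with L81 held nearly all cells of the authors' predicted type tHSC2. No Fraction III library was among those 4. That split therefore runs between the gates, and values without those 4 libraries are given where they end a call.

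The first question was which of the authors' predicted types the gate holds. Of the 66 Fraction III cells, 46 were tHSC1, 20 were tHSC3 and 0 were tHSC2. The tHSC3 share was 8.33% in L49 (1 of 12 cells), 0% in L50 (0 of 6), 50% in L54 (3 of 6), 20% in L55 (1 of 5) and 40.5% in L76 (15 of 37). In the other 4 gates 3 cells were tHSC3, 1 each in ESLAMSK of L1, Fraction I of L76 and LT_HSC of L74. Thus 4 of the 5 Fraction III libraries held tHSC3 cells, as did 3 of the 10 other gate and library sets. The mean tHSC3 share was 23.8% ± 21.1 in Fraction III and 1.53% ± 2.84 in the other gates (SD, n = 5 and 10), a difference of 22.2 percentage points (two-sided exact permutation test, p = 0.0140, adjusted p = 0.0420 over 3 types). The call was lost without cells above 1000 CPM (counts scaled to a common library total) of 4 plasma cell genes (6.15 points, exact adjusted p = 0.231). That cut left 3 Fraction III libraries and itself removed most tHSC3 cells of the gate, so a smaller share followed from it. Leaving out single libraries moved the exact adjusted p between 0.0168 and 0.147. The call was lost without any 1 of L1, L14, L15, L49, L54, L55, L76 and L81. Without L1, L14, L15 and L81 together the difference was 21.99 points (exact adjusted p = 0.123). The 10 other sets came from 9 libraries, since L73 held 2 of them, and L50 and L76 stood in both groups, so the sets are not independent; with libraries that held 1 of the 5 gates alone the difference was 23.96 points (exact adjusted p = 0.143). The mean tHSC2 share was 0% in Fraction III and 39.4% ± 47.6 in the other gates (exact adjusted p = 0.0559). The mean tHSC1 share was 76.2% ± 21.1 in Fraction III and 59.1% ± 47.3 in the other gates (exact adjusted p = 0.458). Without L1, L14, L15 and L81 the tHSC1 share was 76.2% in Fraction III and 95.6% in the other gates, a difference in the opposite direction (-19.4 points, exact adjusted p = 0.123), as with the bone marrow and spleen label alone (-16.9 points, 0.386), and the tHSC2 difference was -2.59 points in place of -39.4.

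**Figure D1:**
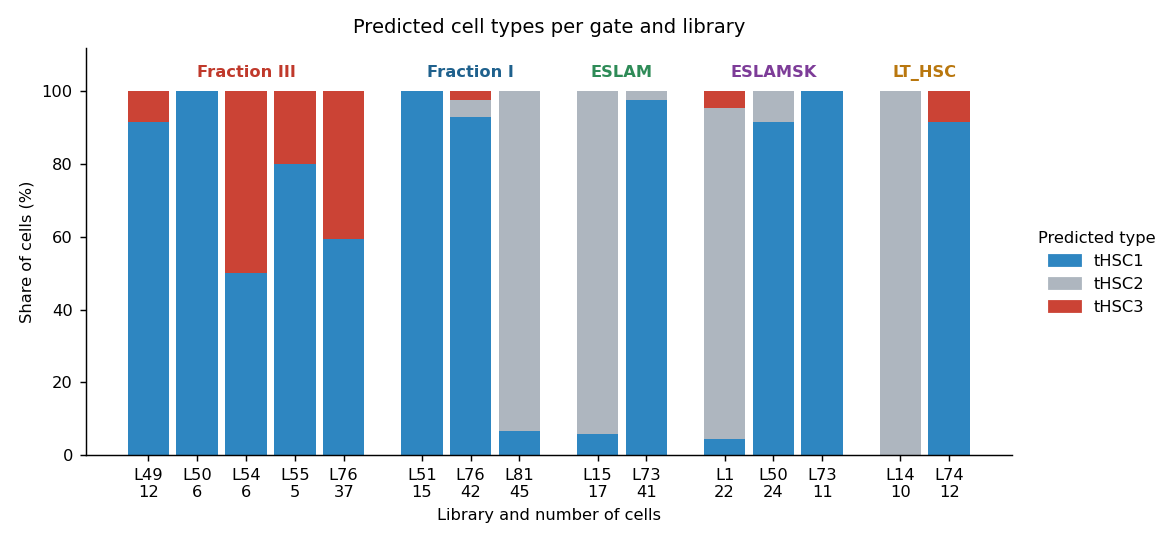
Share of cells of each predicted type (percent, stacked bars) in each gate and library; the number under each bar is the number of cells. tHSC3 takes 8.33% to 50% of the cells in 4 of the 5 Fraction III libraries and at most 8.33% in any other set, while tHSC2 fills most of L1, L14, L15 and L81.

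Of the 20 tHSC3 cells of Fraction III, 14 carried very high levels of plasma cell genes: Jchain, which encodes the joining chain of secreted antibody, Mzb1 and Derl3, which act in the endoplasmic reticulum of secretory cells, and Tnfrsf17, the receptor BCMA. The summed CPM of these 4 genes lay between 16971 and 76936 in the 14 cells (median 26949), against 0 to 1711 CPM in the other 52 Fraction III cells. L76 held 11 of the 14, L54 held 2 and L55 held 1. Across all 2301 annotated cells 17 exceeded 10000 CPM: these 14, 1 LT_HSC cell of L74 and 2 transplanted cells. None of the 40 sorted splenic B cells did, their highest value being 2457 CPM. Low levels were wider spread in some libraries, with medians of 451 CPM in the remaining Fraction III cells and 691 CPM in the Fraction I cells of L76, and 999 CPM in the LT_HSC cells of L74.

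Other genes of the plasma cell programme were present in the same 14 cells. Slamf7, a surface receptor of plasma cells, had 8.88 to 1631 CPM in the 14 cells (median 1020) and was detected in 3 of the 46 tHSC1 cells. Irf4 and Pou2af1, transcription regulators of the B lineage, were detected in 14 of 14 cells each. Prdm1, which encodes the plasma cell repressor Blimp-1, was detected in 13 of 14. Xbp1, the driver of the secretory stress response, had a median of 2403 CPM in the 14 cells and 56.5 CPM in the tHSC1 cells. The MHC class II invariant chain gene Cd74 had medians of 5041 CPM in the 14 cells and 34.0 CPM in tHSC1 cells. The summed level of 16 monocyte and macrophage genes also differed, at 160 to 24626 CPM (median 9298) in the 14 cells and 0 to 1906 CPM (median 85.8) in the tHSC1 cells, and per library it was highest in the same 3 libraries, with 2195, 1101 and 5940 CPM in L54, L55 and L76 and 44.2 and 68.5 CPM in L49 and L50. Of 15 of these genes tested 1 rose, Ly6c2, a surface antigen gene of monocytes and plasma cells in mice, with 0.995, 3.14, 2300, 932 and 5412 CPM after TMM scaling in L49, L50, L54, L55 and L76, against 0 to 1203 CPM in the other gates (log2 fold change 4.42, adjusted p = 0.0489). Ly6a was also high, with a median of 4377 CPM (range 1362 to 9846) in the 14 cells and of 460 CPM (0 to 1597) in the tHSC1 cells. Hlf was low, with 0 to 39.7 CPM (median 17.3) in the 14 cells and 0 to 2385 CPM (median 686) in the 46 tHSC1 cells. These class differences are descriptions with no test, since the 14 cells were picked out by the sum of the 4 genes and the types were predicted for the same cells. The leading genes of these 14 cells go against the stem cell label, and they are called plasma gene high cells below.

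The remaining 6 tHSC3 cells were of several kinds. In L49 and in L76, 1 cell each had 12 of 19 erythroid list genes, summing to 11969 and 10048 CPM. In L54, 1 cell had 11 of 12 neutrophil genes at 176598 CPM, and also 12 of 12 NK cell genes at 3357 CPM. In L76, 1 cell had 103966 CPM of mast cell genes and 1 had 29874 CPM of myeloid granule genes such as Elane and Mpo. The last, also of L76, had genes of many lists together. It had 10 of 11 plasma cell genes at 3586 CPM and 8 of 14 lymphoid priming genes at 3279 CPM. It also had 4 of 16 monocyte and macrophage genes at 2920 CPM and 3 of 12 NK cell genes at 1981 CPM. Megakaryocyte genes summed to 1861 CPM, T cell genes to 1571 CPM (3 of 11 detected) and mast cell genes to 1503 CPM. Hlf was detected in 4 of these 6 cells, at no more than 85.4 CPM. No doublet caller was run on so few cells, and a contribution of doublets was not tested.

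**Figure D2:**
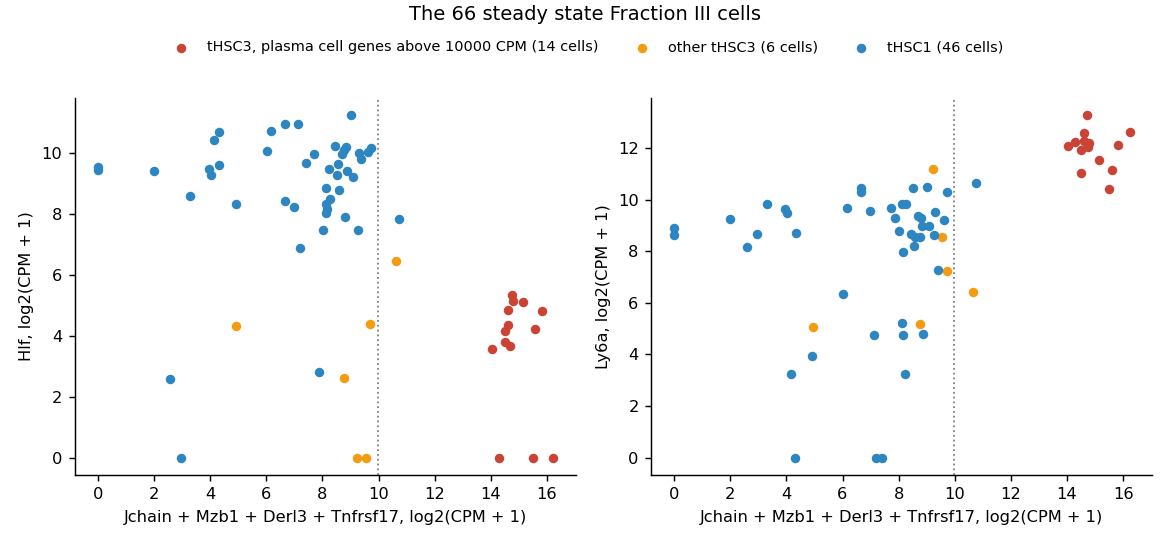
Each point is 1 of the 66 Fraction III cells; the x axis is the summed level of Jchain, Mzb1, Derl3 and Tnfrsf17 and the y axis the level of Hlf (left) or Ly6a (right), all as log2(CPM + 1), with the dotted line at 1000 CPM. The 14 plasma gene high cells lie apart at 16971 CPM or more, with low Hlf and high Ly6a.

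The 46 tHSC1 cells carried the stem cell markers. To compare shares of cells across depths, each cell was thinned to 20000 counts, which every cell reached. After thinning, Hlf was detected in 93.5% of the tHSC1 cells of Fraction III (exact 95% interval 82.1 to 98.6), in 82.6% of the 236 tHSC1 and tHSC2 cells of the other gates, and in 0% of 88 splenic T cells, which should lack it (unthinned 97.8%, 90.7% and 22.7%). Procr was detected in 43.5% of the Fraction III tHSC1 cells, 58.1% of the other gates' cells and 0% of T cells (unthinned 60.9%, 78.8% and 2.27%). Mecom was detected in 34.8%, 44.9% and 0% of the same 3 groups (unthinned 45.7%, 68.2% and 2.27%). Mllt3 was detected in 69.6%, 81.8% and 22.7% (unthinned 82.6%, 93.2% and 37.5%). Median unthinned depths were 91869, 132436 and 129938 counts. In the 14 plasma gene high cells the thinned share was 28.6% for Hlf, 7.14% for Procr and 0% for Mecom. Intervals here cover counting error only.

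Summed per library, none of the 4 markers differed from the mean of the other gates past the threshold (edgeR, Benjamini-Hochberg adjusted p under 0.05). Levels below are CPM scaled by TMM, and in such sums fewer cells of a type and less RNA per cell cannot be told apart. Hlf had 486, 1581, 329, 547 and 268 CPM in Fraction III of L49, L50, L54, L55 and L76, against 132 to 563 CPM in the other gates (log2 fold change 0.94, SE 0.40, adjusted p = 0.296). The groups overlapped, and L50 stood highest. Without the tHSC3 cells Hlf had 623, 1598, 875, 614 and 557 CPM, against 146 to 567 CPM (log2 fold change 1.33, adjusted p = 0.0831). Procr (log2 fold change -0.08, adjusted p = 0.987), Mecom (-0.37, 0.909) and Mllt3 (-0.81, 0.395) also missed the threshold, and their groups overlapped. Mecom had 47.8, 1.57, 145, 141 and 33.4 CPM in the same 5 Fraction III libraries; its gene model overlaps others, among them Mecomos on the opposite strand.

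Against the mean of the other 4 stem cell gates, 172 of 11908 genes tested were called in Fraction III (1.44%), 152 higher (1.28%) and 20 lower (0.168%), and 1533 genes had an unadjusted p under 0.05. The higher genes included plasma, neutrophil, mast and NK cell genes, and the lower ones included S100a1, Nupr1, Vwf and Gng11. Leaving out cells above 1000 CPM of the 4 plasma cell genes, which left Fraction III sums in L49, L50 and L76 only, the count was 10 of 11524 (0.0868%), 6 higher (0.0521%) and 4 lower (0.0347%). That selection left out 16 Fraction III cells, the 14 plasma gene high cells and 2 others of L76, and is named below as without plasma gene high cells. The cut applied to every gate. It also left out 11 of 42 Fraction I cells of L76 and 6 of 12 LT_HSC cells of L74. In ESLAMSK of L1 it left out 1 of 22 cells. Of these cells of the other gates, only 1 LT_HSC cell of L74 exceeded 10000 CPM. Leaving out tHSC3 cells and keeping sums of at least 3 cells, so that all 5 libraries stayed, it was 23 of 11281 (0.204%), 20 higher (0.177%) and 3 lower (0.0266%). Without library L76, and so also without its Fraction I set, the count over all cells was 24.

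**Figure D3:**
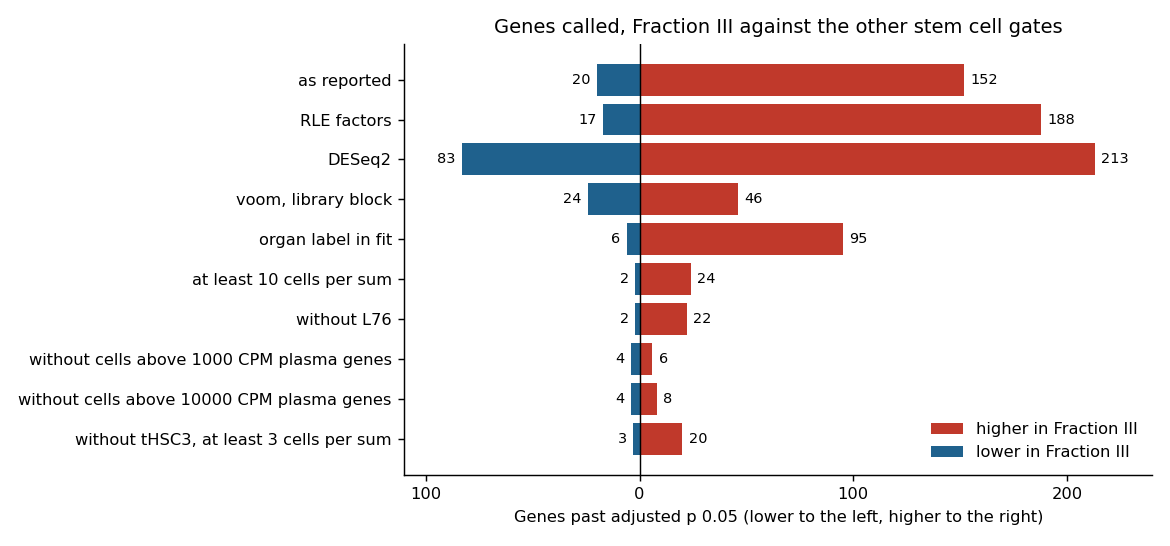
Number of genes past adjusted p 0.05 in Fraction III against the other stem cell gates, lower (left of 0) and higher (right of 0), for the reported fit at the top and for alternatives below it. The higher side holds 152 genes in the reported fit, 22 without L76, 6 without cells above 1000 CPM of plasma cell genes and 20 without tHSC3 cells.

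S100a1, a small calcium-binding protein of the S100 family, was called lower in Fraction III. It had 48.7, 23.5, 50.6, 7.16 and 26.8 CPM in Fraction III of L49, L50, L54, L55 and L76. The 10 sets of the other gates had 143 to 396 CPM. Every Fraction III library lay below every other set (log2 fold change -3.03, SE 0.51, adjusted p = 0.00176). Within L76, S100a1 had 26.8 CPM in Fraction III and 143 CPM in Fraction I, and within L50 it had 23.5 CPM in Fraction III and 247 CPM in ESLAMSK. Without the plasma gene high cells it had 48.7, 23.6 and 19.8 CPM in L49, L50 and L76, against 155 to 395 CPM (adjusted p = 0.0113), a call lost when L50 or L76 was also left out or with the library block (adjusted p = 0.379). Without tHSC3 cells the Fraction III levels were 44.9, 23.8, 130, 2.02 and 22.6 CPM, against 150 to 398 CPM, and the adjusted p was 0.0516. The value of 130 CPM was that of the 3 tHSC1 cells of L54. S100a1 was the 1 gene called against ESLAMSK alone (log2 fold change -3.19, adjusted p = 0.0386), a call lost without any 1 of L1, L49, L50, L51, L76 and L81.

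Nupr1, a small stress-induced chromatin protein that restrains stem cell cycling in mice, had 0.995, 3.14, 15.2, 7.16 and 2.95 CPM in the same 5 Fraction III libraries. In the other gates it had 30.0 to 185 CPM, again with no overlap (log2 fold change -3.65, SE 0.82, adjusted p = 0.0161). Without tHSC3 cells it had 1.28, 3.17, 9.28, 8.08 and 1.97 CPM, against 30.0 to 185 CPM (adjusted p = 0.0478; 0.114 with the library block). This call was lost when L49 (adjusted p = 0.057), L50 (0.056) or L76 (0.115) was also left out. Without tHSC3 cells and L1, L14, L15 and L81, at 5 or more cells a sum, the adjusted p was 0.064. Without plasma gene high cells the library block gave an adjusted p of 0.291, and the call was lost without L76 (adjusted p = 0.0725). Over all cells the call was lost without L15 (adjusted p = 0.0604) and without L76 (adjusted p = 0.0931). It was also lost without L1, L14, L15 and L81 together (adjusted p = 0.140) or in the libraries labelled bone marrow and spleen alone (adjusted p = 0.504). Over all genes tested, 0.244% had every Fraction III library below every other set and 0.0672% had every one above. The share below was 0.703% without plasma gene high cells and 0.408% without tHSC3 cells.

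The 250 bases before the RefSeq gene start (mm10 coordinates, GRCm38.p6) are shown for both genes, because in all 3 cell selections every Fraction III library had less of them than every other set. S100a1 lies on the minus strand of chr3:90511034-90514392 and Nupr1 on the minus strand of chr7:126623249-126630861 by the GENCODE gene model. Both RefSeq starts lie inside these GENCODE models. The whole Nupr1 stretch and part of the S100a1 stretch therefore overlap them. Capitals mark the ETS core GGAAGT on either strand; the GATA motif AGATAA was also searched on both strands, and no matches overlapped. AGATAA occurs in 9.99% and GGAAGT in 19.7% of 32851 RefSeq promoters of this length. The S100a1 stretch holds GGAAGT once, on the opposite strand, and the Nupr1 stretch holds neither.
S100a1, chr3:90514331-90514580: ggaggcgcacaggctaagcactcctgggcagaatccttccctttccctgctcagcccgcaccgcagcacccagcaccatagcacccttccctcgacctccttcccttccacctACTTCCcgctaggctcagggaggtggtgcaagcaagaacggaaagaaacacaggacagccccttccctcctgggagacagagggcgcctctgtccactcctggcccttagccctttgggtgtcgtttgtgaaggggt
Nupr1, chr7:126625471-126625720: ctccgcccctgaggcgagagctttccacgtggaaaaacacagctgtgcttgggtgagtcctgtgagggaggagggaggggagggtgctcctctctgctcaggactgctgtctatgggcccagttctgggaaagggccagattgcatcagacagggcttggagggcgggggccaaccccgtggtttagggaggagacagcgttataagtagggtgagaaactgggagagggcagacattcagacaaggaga

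Vwf, which encodes the clotting protein von Willebrand factor, was called lower in Fraction III. Vwf had 0.497, 1.57, 0, 8.94 and 2.27 CPM in the Fraction III libraries, against 59.8 to 161 CPM in 8 of the 10 other sets, 10.8 CPM in Fraction I of L81 and 1.33 CPM in LT_HSC of L14 (log2 fold change -5.10, SE 1.09, adjusted p = 0.0117). Only L81 and L14 came near the Fraction III levels. The fall was also called without plasma gene high cells (adjusted p = 0.0374) and without tHSC3 cells (adjusted p = 0.0322), but with the library block neither was called (adjusted p = 0.241 and 0.114), and over all cells it was not called without L74 (adjusted p = 0.0663) or without L76 (adjusted p = 0.0897), with at least 10 cells per sum (adjusted p = 0.115) or in the libraries labelled bone marrow and spleen alone (adjusted p = 0.186). The call without plasma gene high cells was also lost without L49 (adjusted p = 0.0852), L50 (0.276), L51 (0.0505) or L76 (0.118). The call without tHSC3 cells was lost without L76 (adjusted p = 0.0906). Within L76, Vwf had 2.27 CPM in Fraction III and 89.9 CPM in Fraction I, and within L50 it had 1.57 CPM in Fraction III and 78.2 CPM in ESLAMSK. Thinned to 20000 counts, 2.17% of the 46 tHSC1 cells of Fraction III held Vwf (exact 95% interval 0.0550 to 11.5), 39.8% of the 236 cells of the other gates (33.5 to 46.4) and 0% of T cells. Unthinned shares were 15.2%, 55.5% and 0%. The cells were pooled over libraries, between which Vwf differed, so these intervals cover counting error only and give no test.

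Clu, the secreted chaperone clusterin, had 0, 0, 0, 8.94 and 0.681 CPM in Fraction III and 0.667 to 293 CPM in the other gates (log2 fold change -4.48, SE 1.19, adjusted p = 0.0482). The call was lost without any 1 of L1, L15, L49, L50, L51, L54, L73, L74, L76 and L81, and without L1, L14, L15 and L81 together (adjusted p = 0.258). Slamf1 had 0.497, 18.8, 0.844, 0 and 0.454 CPM in Fraction III, against 6.88 to 80.2 CPM, and missed the threshold (log2 fold change -3.05, SE 1.17, adjusted p = 0.226). Only L50 overlapped the other gates. Gng11, a G protein gamma subunit, had 234, 83.2, 83.6, 122 and 83.8 CPM in Fraction III and 268 to 712 CPM in the other gates (log2 fold change -1.85, SE 0.39, adjusted p = 0.0117). It was not called without tHSC3 cells, where L49 reached 302 CPM (adjusted p = 0.132). Of the 18 megakaryocyte and platelet genes tested, 0 rose and 2 fell, Vwf and Clu, with a median log2 fold change of -0.64 beside 0.14 over all genes.

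**Figure D4:**
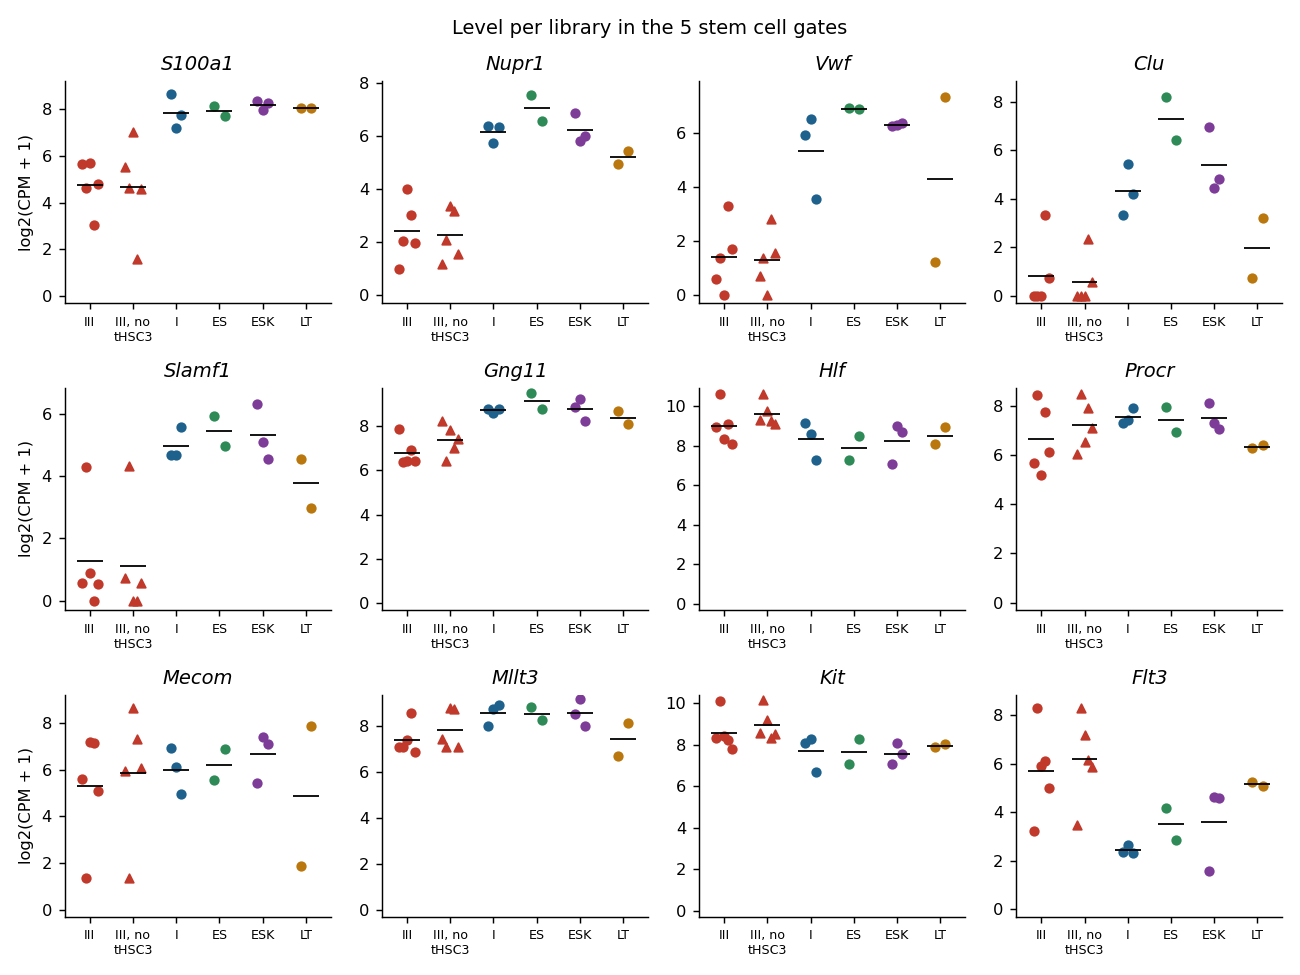
Level of 12 genes per library as log2(CPM + 1), with Fraction III (III, circles), Fraction III without tHSC3 cells (triangles), Fraction I (I), ESLAM (ES), ESLAMSK (ESK) and LT_HSC (LT); lines are means. S100a1 and Nupr1 lie below every other set in all 5 Fraction III libraries, while Hlf, Procr, Mecom and Mllt3 overlap.

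Of the 25 stem cell regulator and identity genes, 1 rose and 3 fell in Fraction III over all cells, with a median log2 fold change of -0.60. Ly6a rose (log2 fold change 1.44, adjusted p = 0.0254); it had 347, 807, 2000, 961 and 2246 CPM, against 217 to 968 CPM. The 3 highest values were in the 3 libraries with plasma gene high cells. Without tHSC3 cells Ly6a had 440, 816, 914, 412 and 375 CPM, against 216 to 633 CPM, and was not called (adjusted p = 0.625). Sult1a1, a sulfotransferase (log2 fold change -2.53, adjusted p = 0.0242), Ifitm1, an interferon-induced membrane protein (-1.07, 0.0328), and Nupr1 fell. Of these 3, Nupr1 alone was called without tHSC3 cells, when the list's median was -0.13 beside 0.08 over all genes. Apoe, which encodes the lipid carrier apolipoprotein E, fell (log2 fold change -1.68, adjusted p = 0.0117) but was not called without tHSC3 cells (adjusted p = 0.115).

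Other genes named among the lower ones were low in most sets. Nrg4, a growth factor of the neuregulin family, had 0 counts in all 5 Fraction III sums and 421 in the other gates, at least 29.2-fold lower against a floor of 3 counts over the group (adjusted p = 0.0489, and 0.0582 to 0.174 without each of the 12 libraries in turn, so that the call was lost each time). Nrg4 overlaps Fbxo22, and the sources used here do not say whether strand was used in counting. Smtnl1, a smoothelin-like muscle protein, had 0.909 CPM in L76 and 0 in the other Fraction III libraries, against 0 to 94.5 CPM (log2 fold change -6.36, adjusted p = 0.0172; 0.0478 without tHSC3 cells). Gkn3, a gastrokine, had 0.995 CPM in L49 and 0 in the others, against 0 to 600 CPM, and was the 1 gene called against ESLAM alone (log2 fold change -10.15, adjusted p = 0.00593), a call lost without L15 or L76. Exoc3l, Cutc, Clca3a1 and Glipr1l1 were also among the named lower genes, each with at most 6.75 CPM in any Fraction III library.

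The receptor genes of the gates themselves were tested one by one. Kit, the stem cell factor receptor, had 316, 1112, 345, 301 and 221 CPM in Fraction III, against 102 to 310 CPM (log2 fold change 1.05, adjusted p = 0.217). Without tHSC3 cells its 5 Fraction III libraries lay above every other set, at 319 to 1124 CPM against 102 to 317 CPM, and the adjusted p was 0.115. Of all genes tested in that selection, 0.0532% lay above every other set in this way. Flt3, a receptor of lymphoid-primed progenitors, had 8.46, 312, 58.2, 67.98 and 31.3 CPM, against 2.03 to 36.7 CPM (log2 fold change 2.85, adjusted p = 0.0540; 3.25 and 0.0592 without tHSC3 cells). Cd48 had 88.05, 14.1, 196, 28.6 and 81.5 CPM, against 0 to 403 CPM, the highest being LT_HSC of L14 (log2 fold change 3.43, adjusted p = 0.0675). Cd34 overlapped fully (log2 fold change 0.59, adjusted p = 0.723). Cd244, a SLAM family receptor, was called higher (log2 fold change 6.68, adjusted p = 0.0399) on 63.7, 29.8 and 2.53 CPM in 3 of the 5 libraries; its adjusted p without tHSC3 cells was 0.0516.

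Of 11 plasma cell genes tested, 10 rose, with a median log2 fold change of 5.55. Jchain had 9.95, 166, 9608, 7383 and 9666 CPM in Fraction III of L49, L50, L54, L55 and L76, against 0 to 3513 CPM (log2 fold change 5.87, adjusted p = 0.0112), and missed the threshold with DESeq2 (adjusted p = 0.0863), with the library block (0.0989), with at least 10 cells per sum (0.160) and with the other gates as 1 group (log2 fold change 3.53, adjusted p = 0.333). Mzb1 (log2 fold change 5.55, adjusted p = 0.00372), Derl3 (6.42, 0.0123) and Tnfrsf17 (4.78, 0.0290) also rose. Slamf7 had 0, 1.57, 337, 161 and 462 CPM, against 0 to 32.4 CPM (log2 fold change 7.97, adjusted p = 0.000955). The 3 libraries with plasma gene high cells held nearly all of these counts. Of 15 unfolded protein response genes 4 rose, Hsp90b1, Pdia4, Xbp1 and Creld2, which encode or drive chaperones of the secretory pathway. Chst1, a sulfotransferase, and Ikzf3, a lymphoid zinc finger factor, showed the same 3 libraries, with 127, 191 and 383 CPM and with 29.5, 33.99 and 37.02 CPM in L54, L55 and L76 and 0 in L49 and L50.

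Genes of other lineages also rose, several of them in 1 library. Of 11 neutrophil genes 6 rose, among them Camp, an antimicrobial peptide, at 5559 CPM in L54, the library with the neutrophil gene cell; the list's sum was 15.9 to 34095 CPM in Fraction III and 4.17 to 38180 CPM in the other gates. Of 6 mast cell genes 3 rose, with the protease gene Cma1 at 265 CPM in L76, the library with the mast gene cell, and 34.6 CPM in L54. Of 5 NK cell genes 3 rose; Ccl5, a chemokine, had 885 CPM in L54 and at most 6.28 CPM in the other 4 libraries, and its call was lost without L54. Klrd1, Tlr7 and Nrp1 were also highest in L54, which had B and NK cells sorted beside Fraction III. Of 8 B cell genes 3 rose, Cd79a, Cd74 and Cr2. T cell genes (0 of 2 tested), G1/S genes (0 of 25), G2/M genes (0 of 24) and interferon response genes (0 of 20) gave no call. Fos and Jun, the AP-1 subunits induced by stimulation, rose among 21 immediate early genes, Jun with 610, 1055, 375, 1073 and 1235 CPM against 43.4 to 520 CPM (log2 fold change 1.78, adjusted p = 0.0118); without tHSC3 cells Jun had 774, 1067, 32.5, 856 and 111 CPM and was not called (adjusted p = 0.296). Tuba3b, an alpha tubulin, had 207 counts in Fraction III and 0 in the other gates, at least 332-fold higher against the floor of 3 counts.

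Of 18 homing and adhesion genes 3 rose: Cd44, the hyaluronan receptor, the integrin gene Itgal and the cadherin gene Cdh2. Cd44 had 201, 477, 217, 89.4 and 144 CPM in Fraction III, against 12.7 to 144 CPM (log2 fold change 2.34, adjusted p = 0.0122). It was called without plasma gene high cells (adjusted p = 0.0471) but not without tHSC3 cells (adjusted p = 0.0831), and the call was lost without L50 and without L76. Within L50 Cd44 had 477 CPM in Fraction III and 49.97 CPM in ESLAMSK, and within L76 144 CPM in Fraction III and 89.1 CPM in Fraction I. Ikzf1, the lymphoid regulator Ikaros, rose (log2 fold change 1.85, adjusted p = 0.0290), and so did Adgrg3, an adhesion G protein-coupled receptor (2.29, 0.0434). Without tHSC3 cells Adgrg3 had 100, 129, 406, 170 and 78.2 CPM, above the 3.93 to 67.9 CPM of every other set, and both genes had an adjusted p of 0.0545.

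With tHSC3 cells left out, the 10 named higher genes were Lrfn1, Fam167a, Mitf, Mmp2, Efcab2, Glis2, Slc22a15, Gatad2b, Plek and Arhgap23. Slc22a15, an organic cation transporter, had 0, 60.3, 262, 246 and 32.5 CPM, against 0 to 15.4 CPM (log2 fold change 5.90, adjusted p = 0.00833). Plek, the platelet and leukocyte protein pleckstrin, had 20.5, 4.76, 921, 115 and 29.0 CPM, against 1.33 to 26.8 CPM (log2 fold change 4.26, adjusted p = 0.0158). For 7 of these 10 genes the highest value was that of L54, a sum of 3 cells. With tHSC3 cells left out, the summed level of 12 B cell markers was still 966 CPM, of 12 NK cell markers 1531 CPM and of 12 neutrophil markers 3419 CPM in L54, and of neutrophil markers 2779 CPM in L55, against 313, 61.3 and 20.9 CPM in L49; their part in these values was not tested. Lrfn1 had 86 counts in Fraction III, chiefly of L54, and 0 in the other gates; it overlaps Samd4b, so its reads could be split or shared. Ano8 was called in the same fit on 174 CPM in L55 and 13.8 CPM in L76; it overlaps Dda1. No gene list had more than 1 member called, Nupr1, Vwf and Ccl5 being the members called. The summed level of the stem cell list was 4717 to 8287 CPM in Fraction III and 5277 to 10163 CPM in the other gates.

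Library L76 held 37 of the 66 Fraction III cells and 42 of the 102 Fraction I cells, and both sets were left out with it. Omitting L50 likewise removed its 24 ESLAMSK cells. L76 bore on many of these calls over all cells. Without it the adjusted p was 0.0862 for Gng11, 0.0754 for Apoe, 0.0998 for Jun, 0.126 for Derl3 and 0.218 for Ly6a, none of which was then called, and the calls of Sult1a1, Ifitm1, Smtnl1, Gkn3, Tnfrsf17, Ikzf1, Ikzf3, Nrp1, Adgrg3, Cd244 and Fos were lost as well. Each of these 11 calls was also lost without at least 1 other library, among them L54 for Ikzf1, Adgrg3, Nrp1, Ifitm1 and Sult1a1 and L74 for Smtnl1, Gkn3 and Sult1a1. Ly6a was also not called without L14 or L54. The calls of S100a1, Jchain, Mzb1 and Slamf7 held without each library in turn.

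Gate by gate, few genes passed. Against Fraction I and against LT_HSC no gene passed in edgeR (854 and 888 genes at an unadjusted p under 0.05; DESeq2 called 51 and 145), and against ESLAM and ESLAMSK 1 each (0.0084%; DESeq2 called 68 and 79). S100a1 had log2 fold changes of -2.97 against Fraction I, -2.92 against ESLAM, -3.19 against ESLAMSK and -3.05 against LT_HSC. Nupr1 had -3.62, -4.58, -3.76 and -2.64, and Vwf -4.53, -5.67, -5.08 and -5.13, in the same order. These 4 comparisons share the Fraction III libraries.

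Set against the 9 multipotent progenitor gates, Fraction III differed in more genes: 1299 of 13297 genes were called (9.77%), 769 higher (5.78%) and 530 lower (3.99%). Without tHSC3 cells, at 3 or more cells a sum, 1911 of 13240 were called (14.4%), 975 higher (7.36%) and 936 lower (7.07%). Those values are used below. All 4 markers were higher in Fraction III. Hlf had 621, 1513, 866, 604 and 558 CPM in Fraction III, against 4.66 to 264 CPM in 17 iMPP libraries (median 94.0), with no overlap (log2 fold change 2.86, SE 0.45, adjusted p = 4.3e-05). Procr (log2 fold change 3.07, adjusted p = 0.00347), Mecom (3.04, 0.00333) and Mllt3 (2.48, 0.00151) rose with overlapping groups, as did Meis1 and Ly6a, so that 6 of 25 stem cell genes rose and 0 fell. Kit rose, and every Fraction III library lay above every iMPP library (log2 fold change 1.75, adjusted p = 0.000277). The share of all genes without overlap was not computed against iMPP. Over all cells the 4 markers were also called, though Procr not without L50, Mecom not without L51, L54, L55 or L73, and Mllt3 not without L55. Without tHSC3 cells but with the minimum of 5 cells per sum, which drops L54 and L55, Mecom (adjusted p = 0.340) and Mllt3 (adjusted p = 0.106) were not called. L49 and L50 held both populations: Hlf had 621 CPM in Fraction III and 204 CPM in iMPP cells of L49, and 1513 CPM and 150 CPM in those of L50.

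Cell cycle genes were lower in Fraction III than in the progenitors. Of 24 G2/M and mitosis genes, 22 fell and 0 rose, with a median log2 fold change of -4.33 beside -0.18 over all genes; their summed level was 142 to 426 CPM in Fraction III and 1482 to 5607 CPM in iMPP. Top2a, the DNA topoisomerase of dividing cells, had 80.7, 18.03, 2.30, 3.97 and 37.5 CPM in Fraction III, against 159 to 518 CPM (log2 fold change -3.48, adjusted p = 8.26e-05). Of 25 DNA replication and G1/S genes, 17 fell and 0 rose. In the fit against the other stem cell gates, also without tHSC3 cells, the summed G2/M level was 142 to 423 CPM in Fraction III and 146 to 434 CPM in those gates, with a median log2 fold change of -0.034 over the list. Over all cells it was 297 to 797 CPM in Fraction III and 151 to 823 CPM in those gates, with a median log2 fold change of 1.004, and 1201 CPM was the median of the other 6 tHSC3 cells, against 194 CPM in the tHSC1 cells. The groups overlapped in both selections. Of 17 oxidative phosphorylation genes 10 fell, among them Ndufa4, with 202 to 644 CPM against 727 to 2377 CPM (log2 fold change -1.75, adjusted p = 0.000202). Ribosome biogenesis genes (5 of 18) and myeloid granule genes (5 of 15) fell, including the azurophil granule genes Mpo (log2 fold change -5.67, adjusted p = 0.0141), Elane (-9.42, 0.00835) and Ctsg (-8.36, 0.00364).

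Of 21 immediate early genes 12 rose in Fraction III relative to iMPP and 0 fell. Fos had 2268, 4906, 3137, 3969 and 2088 CPM in Fraction III, against 49.1 to 1887 CPM, with no overlap (log2 fold change 2.44, adjusted p = 0.000328). Klf2, a Krüppel-like factor of quiescent cells, had 311, 282, 82.7, 250 and 281 CPM, against 0 to 79.1 CPM (log2 fold change 3.15, adjusted p = 0.00191). Of 18 cell cycle brake genes 7 rose and 1 fell; Cdkn1b, which encodes the cyclin-dependent kinase inhibitor p27, and Txnip, an inhibitor of thioredoxin, were among the 7 (log2 fold changes 2.17 and 2.26, adjusted p = 0.00755 and 2.75e-05). Trp53 was the 1 that fell. S100a1, which separated Fraction III from the stem cell gates, was also lower than in iMPP, with 44.8, 22.5, 129, 1.99 and 22.7 CPM against 34.5 to 408 CPM (log2 fold change -2.07, adjusted p = 0.00483).

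**Figure D5:**
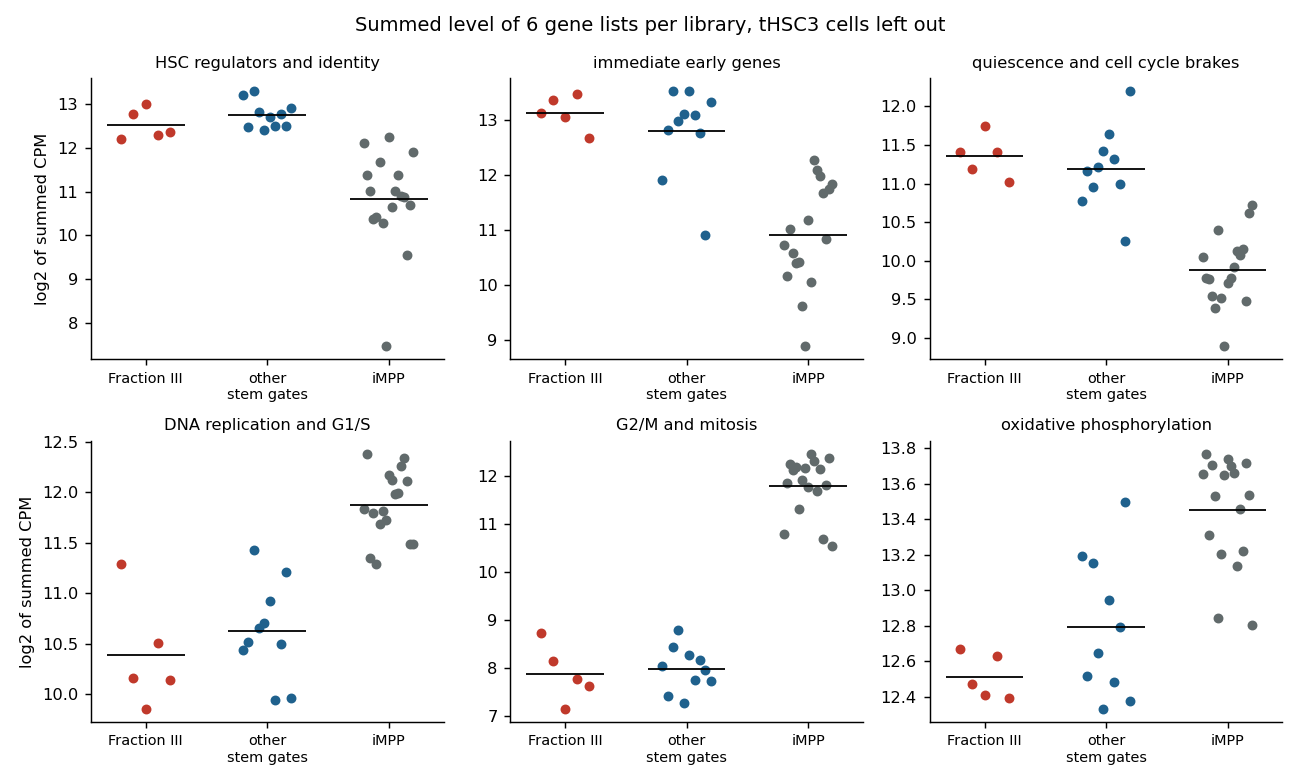
Summed level of 6 gene lists per library (log2 of CPM), without tHSC3 cells, for Fraction III, the other 4 stem cell gates and iMPP; lines are means. Fraction III lies with the other stem cell gates and apart from iMPP for the G2/M list, at 142 to 426 CPM against 1482 to 5607 CPM in iMPP.

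By the rule for named genes, those highest over iMPP without tHSC3 cells were Nes, Lrfn1, Bank1, Sema4g and Shroom3, and those lowest were Dmkn, F13a1, Slc4a8, Efcab11 and Tifab. Efcab11 had 0 CPM in all 5 Fraction III libraries and 2.13 to 59.1 CPM in every iMPP library (adjusted p = 0.00151). The other 4 lower ones also had 0 CPM throughout Fraction III and were at 0 in some iMPP libraries. In this selection the Fraction III sums held 443252 to 1765959 counts, against 1437165 to 27619476 in the iMPP libraries. A level of a few CPM could thus go uncounted in Fraction III, and 0 there does not show absence. Nes, an intermediate filament gene, had 0, 4.51, 6.89, 0 and 16.8 CPM in Fraction III and at most 0.149 CPM in iMPP (log2 fold change 7.35, adjusted p = 0.000254). The Nes levels of L50 and L54 rest on few counts, in sums of 729892 and 502250. Over all cells the named genes were Tuba3b, Stac2, Hepacam2, Fcrla and Ms4a1, the last 2 of the B lineage, on the higher side, and Dmkn, Nrg4, Nicn1, Hdac8 and Them4 on the lower side.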

How the data were processed

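Single cells were sorted by gate and sequenced from 3' ends with a modified Smart-seq2 protocol, per the labels' protocols. The authors deposited 1 table of raw counts for 23154 genes and 2879 cells of 54 libraries with an annotation of 2301 cells; the 578 other cells entered no comparison. The submitters' processing notes name TopHat, HTSeq and mm10, without versions; whether strand was used is not given in the sources used here. Counts were summed per gate and library (at least 5 cells), scaled by TMM, filtered with filterByExpr and tested with edgeR 4.0.16's quasi-likelihood test in R 4.3.3, Fraction III against the mean of the other 4 gates, with all 5 gates in 1 fit. Genes at a Benjamini-Hochberg adjusted p under 0.05 were called. limma 3.58.1 (voom with a library block) and DESeq2 1.42.0 served as alternatives, and shares of types were compared with exact permutation tests. The edgeR procedure was tested on simulated data.

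The cell selection, the 29 gene lists and the tests were chosen with earlier results of these data known. The genes named were the 10 called genes with the largest log2 change in each direction (5 against a single gate or iMPP) with a count in most libraries of the higher group, leaving out predicted transcripts, ribosomal protein, Xist and Y-linked genes; up to 3 members of a list by p; and Hlf, Procr, Mecom, Mllt3, the gate surface genes and the 4 plasma cell genes. Other genes were chosen after their values were seen. Selections without tHSC3 cells with at least 3 cells per sum were added after seeing the data, to keep all 5 libraries. The raw table holds 0 mitochondrial genes, and no columns of the 2301 annotated cells were identical. Cell names were unique, and barcodes were not compared. Intervals for shares of cells cover counting error only, since cells were pooled over libraries. Some genes are not reported here.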

Additional observations from a re-analysis of the deposited data

Results flagged for a closer look

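Among the 5 Fraction III libraries, 1 value stood far from the others for 5 of 47 genes screened. Chance alone gives such a gap in about 1 of 20 groups of normally distributed values. That rate does not apply to genes at 0 in 4 libraries, such as Gkn3 and Smtnl1, whose gap is fixed. Some of the screened genes were also chosen by their change in these same libraries. Kit was 1112 CPM in L50, against 221 to 345 CPM in the other 4 libraries. Slamf1 was 18.8 CPM in L50 and at most 0.844 CPM in the others. Clu was 8.94 CPM in L55 and at most 0.681 CPM in the others. Gkn3 was 0.995 CPM in L49 and Smtnl1 was 0.909 CPM in L76, each with 0 in the other 4 libraries.

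Cells without an annotation were not part of any comparison. Of these, 19 in L74, 1 in L50 and 1 in L53 had more than 10000 CPM of Jchain, Mzb1, Derl3 and Tnfrsf17 together.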

How the results depend on the processing

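No paired analysis was possible because the replicate numbers follow accession order and pair no samples; L50 and L76 hold Fraction III beside 1 other stem cell gate each, and a library block (limma voom) was fitted over all libraries, with an estimated correlation of 0.484. Of the comparison with the mean of the other stem cell gates, 172 genes were called in edgeR. The count was 296 with DESeq2, 26 with at least 10 cells per sum, 63 with the bone marrow and spleen label alone, 70 with the library block, 570 without a filter on low counts, 101 with the organ label as a covariate and 21 with the other gates as 1 group. It was 10 without cells above 1000 CPM of plasma cell genes, 12 without those above 10000 CPM, 15 without tHSC3 cells, 35 when L1, L14, L15 and L81 were also left out, and 23 without tHSC3 cells at 3 cells per sum. In the selection without plasma cells it was 150 with DESeq2, 11 with RLE factors, 38 with at least 3 cells per sum and 3 with the library block; in the last selection without tHSC3 cells it was 322 with DESeq2 and 0 with the library block (1109 genes at an unadjusted p under 0.05). Leaving out single libraries gave 24 to 254 genes over all cells and 0 to 254 over all cell selections. Higher genes made up 88.4% of calls in edgeR, 71.96% with DESeq2 and 65.7% with the library block; the median log2 fold change of all genes was 0.14, 0.24 and -0.14 in these 3 fits. Against iMPP, higher genes made up 59.2% of calls in edgeR and 74.9% with RLE factors (1217 higher and 408 lower).

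Against ESLAM (1 gene) the counts were 2 with these 2 gates alone, 68 with DESeq2, 0 with at least 10 cells or the organ covariate, 20 with bone marrow and spleen alone, 58 with the library block, 66 without the filter, 2 without L49 and L55, 26 without L1, L14, L15 and L81, and 3 in each selection without plasma gene high or tHSC3 cells. Against ESLAMSK (1 gene) they were 0 with the 2 gates alone, with RLE factors, with at least 10 cells or without L49 and L55, 79 with DESeq2, 32 with bone marrow and spleen alone, 49 with the library block, 62 without the filter, 47 without L1, L14, L15 and L81, and 4 in both selections without plasma gene high cells. Against Fraction I (0 genes) they were 51 with DESeq2, 1 with at least 10 cells or without L49 and L55, 15 with bone marrow and spleen alone, 74 without the filter, 8 with the organ covariate and 36 without L1, L14, L15 and L81. Against LT_HSC (0 genes) they were 145 with DESeq2, 1 with the library block or without L49 and L55, 29 without the filter and 9 without L1, L14, L15 and L81; the bone marrow and spleen label alone left no LT_HSC contrast. Against iMPP (1299 genes) they were 1960 with DESeq2, 119 with at least 10 cells, 113 with bone marrow and spleen alone, 825 with the library block, 649 with the organ covariate, 743 and 773 without cells above 1000 and 10000 CPM. Leaving out single libraries gave 0 to 17 for ESLAM, 0 to 6 for ESLAMSK, 0 to 19 for Fraction I, 0 to 5 for LT_HSC and 819 to 1571 for iMPP.

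The tHSC3 difference was 6.15 points without plasma gene high cells (3 Fraction III libraries) and 22.9 with at least 10 cells (2 Fraction III libraries). It was 19.6 with bone marrow and spleen alone, 23.96 in libraries with 1 gate and 21.99 without L1, L14, L15 and L81. All of these missed the threshold. Leaving out single libraries gave 15.7 to 28.02 points, 10.6 to 27.1 for tHSC1 and -48.9 to -32.7 for tHSC2. The tHSC1 difference reversed to -16.9 with bone marrow and spleen alone and -19.4 without L1, L14, L15 and L81. Log2 fold changes that reversed were those of Ccl5 (-0.31 with at least 10 cells), Ly6a (-0.033, no plasma cells, library block), Mzb1 (-0.21, no tHSC3 cells nor L1, L14, L15 and L81), Derl3 (-0.13 without cells above 10000 CPM, -0.031 and -0.25 without tHSC3 cells) and Tnfrsf17 (-0.61 and -1.04 without cells above 1000 and 10000 CPM, -1.15 without tHSC3 cells, -0.43 and -0.50 without cells above 1000 CPM in fits with the library block and with RLE factors, and -1.67 without tHSC3 cells nor L1, L14, L15 and L81). Over all single-library omissions and cell selections the log2 fold change lay between -0.36 and 10.44 for Ccl5, between -0.28 and 1.74 for Ly6a, between -3.24 and 8.50 for Derl3 and between -1.52 and 7.38 for Tnfrsf17. The cause was not tested.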
